A study of Saccharomyces cerevisiae with 6 samples.

Results

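The proteasome is described here through 35 genes of budding yeast (Saccharomyces cerevisiae): its subunits, its assembly factor UMP1, its alternative cap BLM10 and its transcription factor RPN4. They were found by gene symbol in the platform annotation, among 5656 genes with a probe set of 1 symbol. The set holds 14 genes of the 20S core, 10 of the 19S base and 8 of the 19S lid beside those 3. Of the 35, 32 had 1 probe set and 3 had several, 41 probe sets in all. K91A 1 to K91A 3 are single-sample arrays of a strain whose histone H4 carries alanine in place of lysine 91. WT 1 to WT 3 are arrays of a strain with the wild-type histone. Per the labels, cells of both strains were taken from mid-log growth in the rich medium YPD, which holds glucose, and the sample is total RNA. The labels name no strain background, and do not say that the replicates were separate cultures, so the p-values cover only the spread among these arrays, which may be technical.

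The proteasome degrades proteins tagged with ubiquitin. Its core is a barrel of alpha and beta rings with the proteolytic sites inside, and the 19S particle, built from a base with an ATPase ring and a lid, binds, deubiquitinates and unfolds substrates. In yeast most of these genes share a promoter element bound by Rpn4, a short-lived activator that the proteasome itself degrades, so that Rpn4 protein accumulates when proteasome capacity is short.

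K91A 3 is K91A by its title and WT by its description. It was kept as K91A, and values without it are given beside RPN4, RPT2, UMP1, SEM1, UBI4 and RAD6. The ratio of 5' to 3' signal of the actin control, a measure of RNA integrity and labelling, was 0.861 ± 0.0173 in K91A and 0.196 ± 0.146 in WT (SD, n = 3 each). WT 3 had the highest ratio of the WT arrays, 0.365. The median deposited intensity was 745 to 2561.4 on the K91A arrays, with K91A 3 the lowest, and 1826.75 to 3116.5 on the WT arrays. Levels below are log2(intensity + 16) after quantile normalization, and each fold change is the difference of these levels, K91A minus WT. All 35 genes lay above the dimmest 25% of probe sets that were left out, and their mean levels stood between the 70.3 and 97.7 percentiles of all probe sets with values.

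RPN4 was higher in K91A. By their brightest probe sets, none of the 32 core, base and lid genes passed limma's test in either direction (adjusted p under 0.05). RPN4 thus was 1 of 35 genes called, and 30.2% of the 6931 probe sets tested were called. By direction, 1 gene was called higher, against 15.4% of probe sets (1068), and 0 lower, against 14.8% (1023). On the values as deposited, which keep differences in level between arrays, 32 probe sets were called higher and 671 lower. At an unadjusted p under 0.05 there were 4, RPN4 and the base ATPase genes RPT2, RPT3 and RPT6. All K91A arrays lay above all WT arrays for 3 of the 35 genes and below them for 6, and the arrays of the 2 strains were separate in this way for 51.1% of probe sets. Among the 2743 probe sets at least as bright as the dimmest of the 35 genes, 24.8% were called. The median log2 fold change of the 35 genes was -0.06, and that of all probe sets tested was -0.07. By the brightest probe sets, only RPN4 and RPT2 differed by over 1 log2 unit in the fit (2 of 35). Of all probe sets 24.6% did, and of the bright ones 18.7%. Further probe sets of RPT5 and BLM10, given below, were called higher and differed by over 1 log2 unit.

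**Figure D1:**
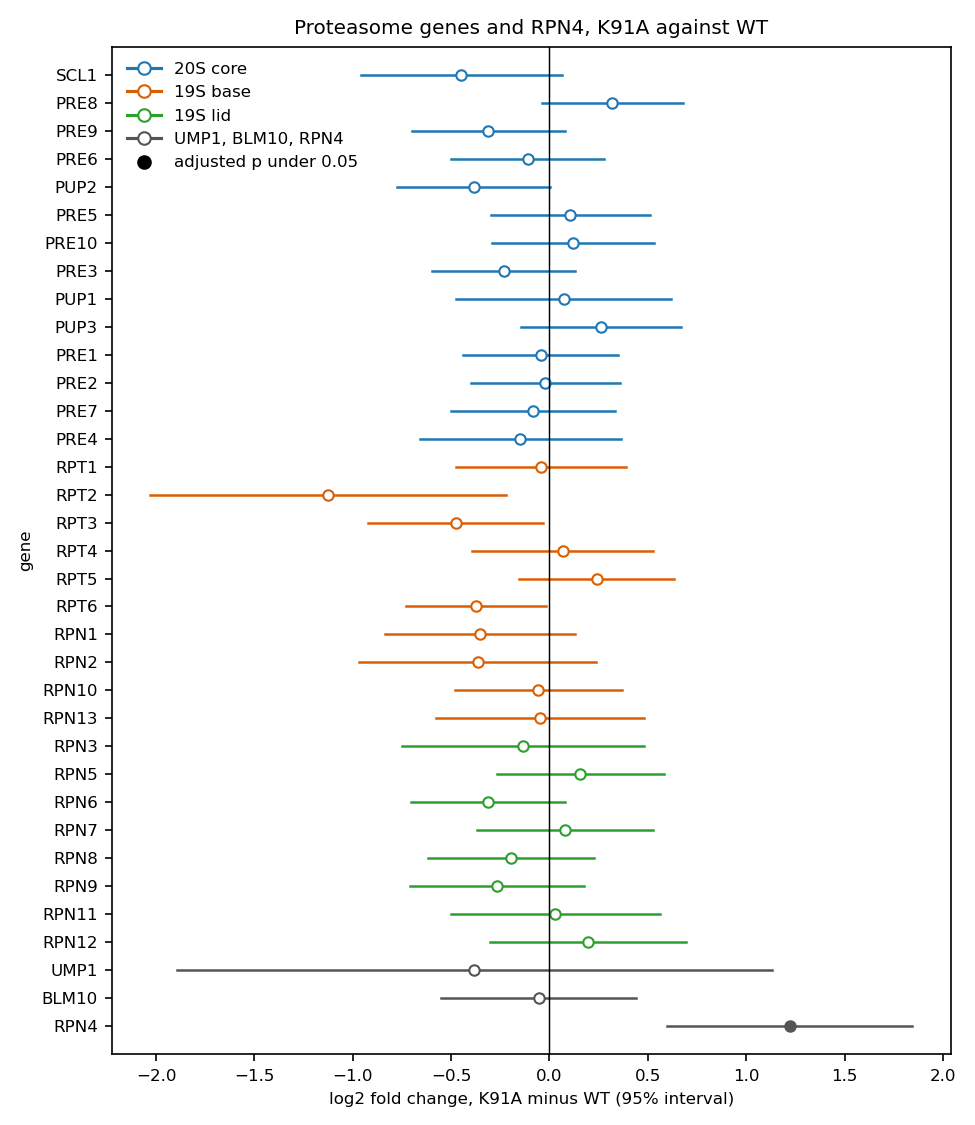
Log2 fold change (K91A minus WT) of the brightest probe set of each of the 35 genes, by subcomplex from top to bottom. Lines are 95% intervals from the limma fit, and filled points passed the adjusted threshold of 0.05. RPN4 is the only filled point, and 31 of the 32 core, base and lid intervals lie within 1 log2 unit of 0.

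RPN4 encodes the activator of the proteasome genes. Its level was 13.42, 13.47 and 13.32 on K91A 1, 2 and 3, against 12.57, 12.34 and 11.64 on WT 1, 2 and 3. All K91A arrays lay above all WT arrays, as they did for 23.7% of probe sets, and the K91A arrays were close to each other while WT 3 was low. The K91A mean was 2.33-fold higher (13.41 ± 0.08 in K91A and 12.18 ± 0.48 in WT, SD, n = 3 each; log2 fold change 1.22, SE 0.26, limma adjusted p = 0.016). WT 3 also had the highest actin ratio of the WT arrays, and without it the log2 fold change was 0.94 (adjusted p = 0.0178). Without K91A 3 it was 1.25 (adjusted p = 0.029). The call was lost without WT 2 (1.28, adjusted p = 0.0525), with K91A 3 counted as WT (0.98, adjusted p = 0.328) and on unnormalized values (0.38, adjusted p = 0.694). Without normalization all probe sets together had a median of -0.82, so RPN4 stood 1.21 above it, in place of 1.29 after quantile normalization.

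The 95% interval of the RPN4 fold change, 0.60 to 1.85, lay above the upper interval bound of 27 of the 32 core, base and lid genes. The highest such bound by the brightest probe sets, that of RPN12, was 0.70. Whether RPN4 and the subunit genes differed in their response was not tested.

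RPN4 transcription is known to be induced by Pdr1 and Pdr3, regulators of drug efflux, by Yap1, the oxidative stress regulator, and by Hsf1, the heat shock factor. Of these 4 genes, 2 rose, 0 fell and 2 did not pass, where 15.4% of all probe sets were called higher and 14.8% lower. HSF1 was at 11.32, 12.20 and 12.42 on K91A 1, 2 and 3, against 10.79, 10.54 and 10.70 on WT 1, 2 and 3 (log2 fold change 1.30, SE 0.30, adjusted p = 0.0203). PDR3 was at 10.95, 10.52 and 11.22 on the K91A arrays and at 9.95, 9.93 and 9.88 on the WT arrays (0.97, SE 0.23, adjusted p = 0.0213). Both genes had all K91A arrays above all WT arrays, as did 23.7% of probe sets, and their WT arrays lay close together. YAP1 also did not overlap, with 10.62, 11.52 and 10.93 on the K91A arrays, against 9.83, 10.13 and 10.50 on the WT arrays, but missed the threshold (0.87, SE 0.30, adjusted p = 0.0652). PDR1 was at -0.30 (SE 0.19, adjusted p = 0.27). With array weights YAP1 (0.80, adjusted p = 0.0276) and PDR1 (-0.46, adjusted p = 0.0499) passed. HSF1 and PDR3 no longer passed without WT 1 (adjusted p = 0.063 and 0.0737), WT 2 (0.0782 and 0.0794) or WT 3 (0.0546 and 0.055), with WT 1 and WT 2 averaged (0.0686 and 0.0739), on the values as deposited (0.533 and 0.725) and with K91A 3 counted as WT (0.559 and 0.567). PDR3 also did not pass without K91A 1 (adjusted p = 0.0606) and with the replicate number as a block (0.051).

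**Figure D2:**
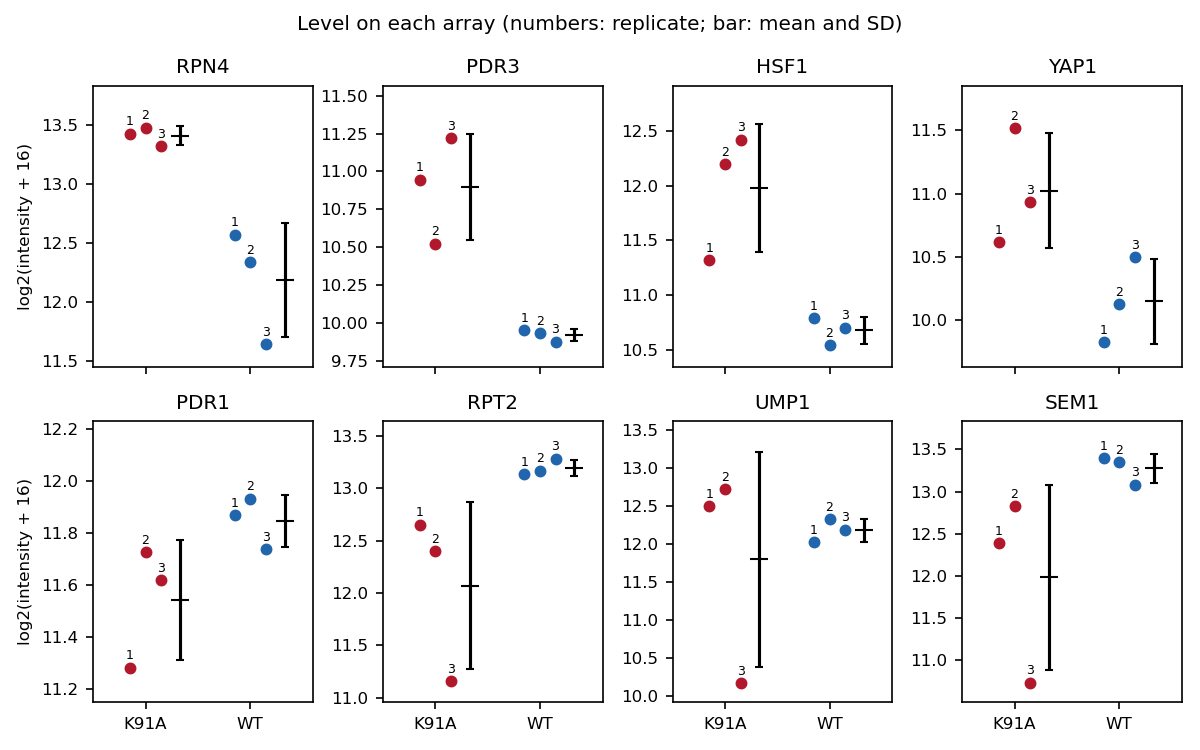
Log2 level (vertical axis, a scale of its own in each panel) of RPN4, of 4 genes whose products act on its promoter, and of RPT2, UMP1 and SEM1 on each K91A (left, red) and WT (right, blue) array, with replicate numbers and the mean and SD. RPN4, PDR3, HSF1 and YAP1 have all K91A arrays above all WT arrays, while K91A 3 alone is far below the other arrays for RPT2, UMP1 and SEM1.

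The 14 core genes had log2 fold changes between -0.45 (SCL1) and 0.32 (PRE8), with a median of -0.07, 9 below 0 and 5 above. None passed limma's test, where 30.2% of all probe sets tested did, and none had an unadjusted p under 0.05. The SE of these values was 0.15 to 0.23. In the alpha ring, which gates the entrance to the barrel, PRE8 had 13.59, 13.41 and 13.40 on K91A 1, 2 and 3, against 13.17, 13.10 and 13.18 on WT 1, 2 and 3. It was the only core gene with all K91A arrays above all WT arrays, at a log2 fold change of 0.32 (95% interval -0.04 to 0.68, adjusted p = 0.149). PUP2, another alpha subunit, had 13.24, 13.37 and 13.02 on the K91A arrays, against 13.64, 13.66 and 13.49 on the WT arrays. Its groups did not overlap in the opposite direction (log2 fold change -0.39, SE 0.17, adjusted p = 0.118). PRE9, the alpha subunit that yeast can live without, had 12.75, 12.71 and 12.53 on the K91A arrays, against 12.96, 13.02 and 12.94 on the WT arrays (-0.31, SE 0.16, adjusted p = 0.188). SCL1, the gene of the lowest core value, overlapped between the groups (-0.45, 95% interval -0.96 to 0.06, adjusted p = 0.155). PRE6 was at -0.11, PRE5 at 0.11 and PRE10 at 0.12, each with an SE of 0.16 to 0.17.

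The beta ring holds the proteolytic subunits. PRE3, PUP1 and PRE2 encode the caspase-like, trypsin-like and chymotrypsin-like ones. PRE2 had 14.02, 13.59 and 13.84 on K91A 1, 2 and 3, against 13.87, 13.83 and 13.81 on WT 1, 2 and 3, and the groups overlapped (log2 fold change -0.02, 95% interval -0.40 to 0.36). PUP1 had 13.29, 12.70 and 13.20 on the K91A arrays, against 13.08, 13.18 and 12.72 on the WT arrays (0.07, 95% interval -0.47 to 0.62). PRE3 had 13.29, 13.25 and 13.31 on the K91A arrays, against 13.48, 13.67 and 13.40 on the WT arrays by its brightest probe set. All K91A arrays were below all WT arrays for PRE3, but the difference did not pass (-0.23, SE 0.15, adjusted p = 0.282). The 4 other beta genes were PUP3 (0.26), PRE1 (-0.05), PRE7 (-0.08) and PRE4 (-0.15), and their groups overlapped. For no beta gene did the 95% interval reach beyond 0.67 in either direction. PRE8 passed in 2 settings, after removal of the trend on coding length (0.52, adjusted p = 0.0343) and with array weights (0.38, adjusted p = 0.0433).

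By their brightest probe sets, the 10 base genes had log2 fold changes between -1.12 (RPT2) and 0.24 (RPT5), with a median of -0.21. Of these values 8 were below 0 and 2 above, and again none passed limma's test. Of all probe sets tested, 30.2% did. The 3 members at an unadjusted p under 0.05 were ATPases of the ring that unfolds substrates. RPT2, whose tail helps to open the gate of the core, had 12.65, 12.40 and 11.16 on K91A 1, 2 and 3, against 13.13, 13.17 and 13.28 on WT 1, 2 and 3. All K91A arrays were below all WT arrays, as for 27.5% of probe sets, and K91A 3 stood far below the other K91A arrays. The log2 fold change was -1.12 (95% interval -2.03 to -0.22, adjusted p = 0.0646), and -0.66 (adjusted p = 0.0561) without K91A 3. RPT6 had 13.43, 13.55 and 13.33 on the K91A arrays, against 13.92, 13.82 and 13.70 on the WT arrays (-0.38, SE 0.15, adjusted p = 0.1). RPT3 had 11.77, 11.79 and 11.48 on the K91A arrays, against 12.11, 12.32 and 12.04 on the WT arrays (-0.48, SE 0.19, adjusted p = 0.0962). Neither of these 2 genes overlapped between the groups. K91A 3 was the lowest array in both, as in RPT2. For RPT3 it lay 0.67 below the WT mean, against 0.39 and 0.37 for K91A 1 and 2.

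Of the 6 ATPase genes, 4 were below 0 and 2 above. RPT1 was at -0.04 and RPT4 at 0.07 with overlapping groups. RPT5 was at 0.24 (SE 0.17, adjusted p = 0.307) by its brightest probe set. Its K91A arrays all lay above its WT arrays, as for 23.7% of probe sets. RPN1 and RPN2, the large scaffold subunits of the base, had log2 fold changes of -0.35 and -0.37 (SE 0.20 and 0.26). The ubiquitin receptor genes RPN10 and RPN13 had -0.06 and -0.05. The groups of these 4 genes overlapped.

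The 8 lid genes had log2 fold changes between -0.31 (RPN6) and 0.20 (RPN12), with a median of -0.05, 4 on either side of 0, and all 8 had overlapping groups. None passed limma's test or had an unadjusted p under 0.05. Of all probe sets tested, 51.1% had groups that did not overlap and 30.2% were called. RPN11, the deubiquitinating enzyme of the lid, had 11.65, 12.33 and 12.01 on K91A 1, 2 and 3, against 11.88, 11.92 and 12.10 on WT 1, 2 and 3 (0.03, 95% interval -0.50 to 0.56). Its K91A arrays lay on both sides of the WT arrays. RPN6, a scaffold subunit that touches both the lid and the core, had 13.87, 13.50 and 13.60 on the K91A arrays, against 14.09, 14.02 and 13.80 on the WT arrays (-0.31, 95% interval -0.70 to 0.08). RPN3, RPN8 and RPN9 were at -0.14, -0.20 and -0.27, and RPN5 and RPN7 at 0.16 and 0.08, with an SE of 0.18 to 0.26. SEM1 encodes a further small lid subunit that is not among the 35 genes and was named after its values were seen. It had 12.39, 12.82 and 10.74 on the K91A arrays, against 13.40, 13.35 and 13.08 on the WT arrays (-1.29, SE 0.51, adjusted p = 0.0949). K91A 3 was again the lowest array, and without it the value was -0.66 (adjusted p = 0.0794). SEM1 passed as lower on the values as deposited (-2.22, adjusted p = 0.00823), with median centring (-1.57, adjusted p = 0.0386), with array weights (-1.43, adjusted p = 0.0166) and without K91A 2 (-1.74, adjusted p = 0.0434).

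Set side by side, the medians of core, base and lid were -0.07, -0.21 and -0.05, close to the -0.07 of all probe sets for core and lid and lower for base. By array, the median difference of the core genes from their WT means was 0.12, -0.21 and -0.04 on K91A 1, 2 and 3, against 0.04, 0.05 and -0.12 on WT 1, 2 and 3. The K91A values of the core thus lay on both sides of the WT values. That of the base genes was -0.23, -0.22 and -0.23 on the K91A arrays, and 0.05, 0.12 and -0.13 on the WT arrays. The base median was below every WT array on each K91A array. That of the lid genes was 0.07, -0.16 and -0.22 on the K91A arrays, and 0.08, 0.04 and -0.08 on the WT arrays. These medians were not tested, since the genes of a complex are not replicates. Of the 35 genes, K91A 1 was the highest K91A array for 19 and K91A 3 the lowest for 17. The SD of the 35 genes between replicates had a median of 0.19 in K91A and 0.14 in WT, and that of all probe sets tested was 0.32 in K91A and 0.20 in WT.

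**Figure D3:**
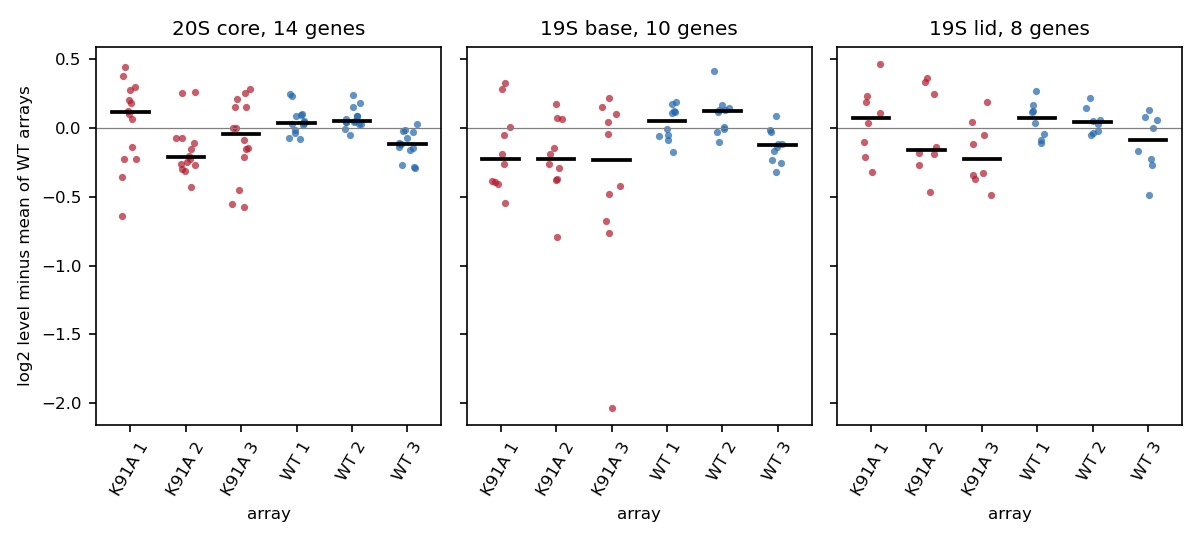
Log2 level minus the mean of the WT arrays (vertical axis) for each gene of the 20S core, 19S base and 19S lid on the K91A (red, left) and WT (blue, right) arrays; black lines are medians over genes. The base medians of the K91A arrays, -0.23 to -0.22, lie below those of the WT arrays, and the lone low point on K91A 3 is RPT2.

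The count of genes called lower was 0 but depended on the processing. RPT2 passed without K91A 1 (-1.46, adjusted p = 0.0466) and on unnormalized values (-2.04, adjusted p = 0.0182), and RPT2 and RPT3 passed with median centring (-1.39 and -0.62, adjusted p = 0.0205 and 0.0475). PUP2 and RPT6 passed without K91A 2 (-0.47 and -0.44, adjusted p = 0.047 and 0.042). With array weights 6 genes passed as lower, SCL1, PUP2, RPT2, RPT3, RPT6 and RPN2, with values of -0.99 to -0.45. Median centring moved the median of all probe sets to -0.18, and RPT2 and RPT3 were both below it. In the other 14 settings 0 genes were called lower.

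UMP1, a chaperone that rides inside the half-built core and is degraded on its completion, had 12.50, 12.72 and 10.17 on K91A 1, 2 and 3, against 12.02, 12.32 and 12.19 on WT 1, 2 and 3. K91A 3 was far below and the other K91A arrays above all WT arrays. The log2 fold change was -0.38 (95% interval -1.89 to 1.13), and 0.42 (adjusted p = 0.185) without K91A 3, so its direction rested on that array. BLM10 encodes a large cap that can replace the 19S particle. By its brightest probe set it had 12.14, 11.78 and 12.29 on the K91A arrays, against 12.31, 12.04 and 12.02 on the WT arrays (-0.06, 95% interval -0.55 to 0.44).

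Of the 3 genes with several probe sets, BLM10 and RPT5 had some that passed and some that did not, and PRE3 had none that passed. Of the 40 probe sets of the 35 genes that were tested, 4 were called higher and 0 lower. Over all probe sets tested, 15.4% were called higher and 14.8% lower. The 4 were that of RPN4, a second one of BLM10 and 2 further ones of RPT5. The second BLM10 probe set had 11.46, 11.40 and 11.91 on K91A 1, 2 and 3, against 8.77, 8.70 and 9.81 on WT 1, 2 and 3 (log2 fold change 2.49, SE 0.34, adjusted p = 0.00386). One of RPT5, with an identifier that marks shared probes, had 12.53, 12.25 and 12.61 on the K91A arrays, against 9.56, 9.86 and 11.24 on the WT arrays (2.25, SE 0.43, adjusted p = 0.0109). Another of RPT5 had 11.42, 11.29 and 11.53 on the K91A arrays, against 10.02, 10.79 and 10.29 on the WT arrays (1.05, SE 0.24, adjusted p = 0.0192). In all 3 probe sets the K91A arrays lay above the WT arrays, as for 23.7% of probe sets. The brightest probe set of BLM10 was at -0.06 with overlapping groups. That of RPT5 was at 0.24, also with all K91A arrays above all WT arrays. The same held for the dim RPT5 probe set left out of the test (9.14, 9.02 and 9.53 against 8.93, 8.55 and 8.14). In the second BLM10 probe set and the RPT5 one at 2.25, WT 3 was the highest WT array. WT 3 also had the highest actin ratio of the WT arrays (0.365). The sources used here do not place these probe sets along the transcripts, and the part of the 5' to 3' difference in these results was not tested. With the mean of each gene's probe sets, RPT5 (1.06, adjusted p = 0.00842) was called higher, as was BLM10 (1.22). The 2 further probe sets of PRE3 were both at -0.12 with an SE of 0.42 and 0.55.

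**Figure D4:**
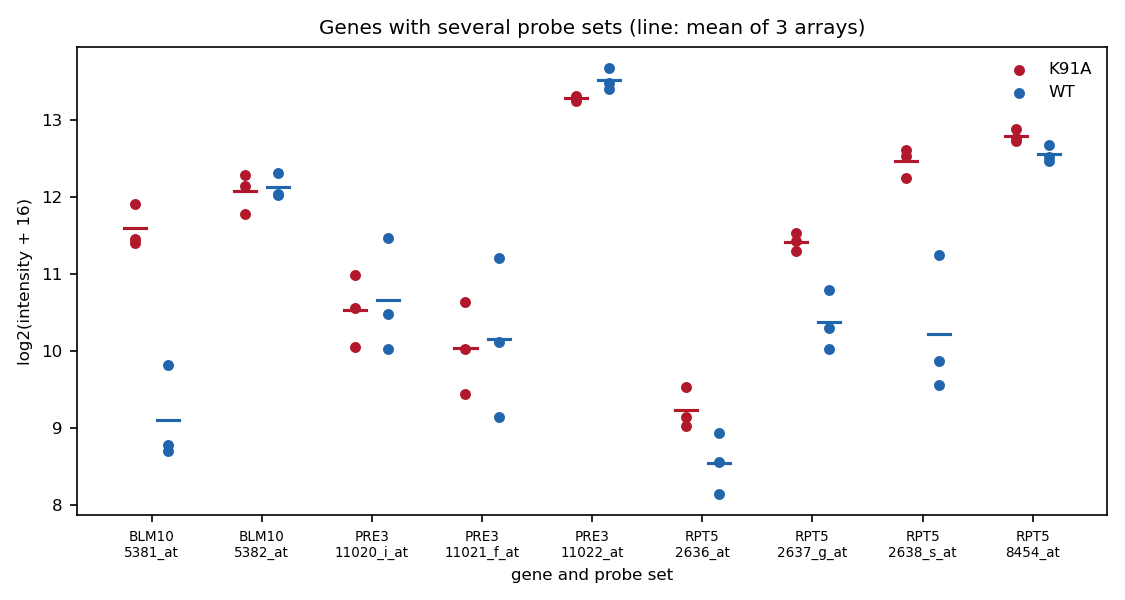
Log2 level (vertical axis) of each probe set of BLM10, PRE3 and RPT5 on the 3 K91A (left, red) and 3 WT (right, blue) arrays, with a line at each mean; levels compare arrays within a probe set, not probe sets. The groups stand apart for one BLM10 probe set and 2 of RPT5 that passed, and lie close together for the brightest probe set of each gene.

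Across the array, fold changes moved with coding length. Spearman's rho was 0.215 over 5013 protein-coding genes, a description across genes that share the same 6 arrays. The core genes are short, 597 to 867 nt (PRE3 includes its intron). Of the 695 other genes in that span, 7.91% were called higher and 21% lower, with a median of -0.31, and the core median was -0.07 with 0 of 14 called. The lid genes span 825 to 1572 nt, where 1812 other genes had a median of -0.11, 13% higher and 13.7% lower. The base genes span 471 to 2982 nt, where 4043 other genes had a median of -0.09, 14.7% higher and 14.1% lower. Among the 32 core, base and lid genes rho of fold change with length was -0.21. With the length trend of every array removed, the medians were 0.12 for core, -0.22 for base and -0.03 for lid, and RPN4 (1596 nt) was at 1.14 (adjusted p = 0.0145).

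**Figure D5:**
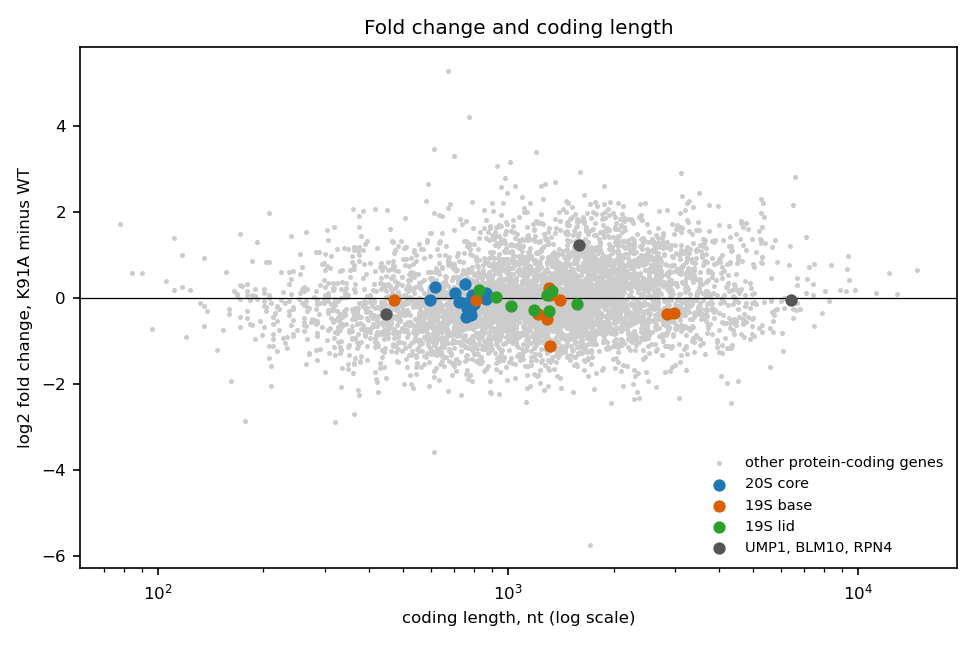
Log2 fold change (K91A minus WT, vertical axis) against coding length in nt (log scale) for protein-coding genes (grey) and the 35 genes by subcomplex. The core genes cluster between 597 and 867 nt around a fold change of 0, where the median of other genes is -0.31, and RPN4 is the highest coloured point.

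The 35 genes lie on 13 chromosomes. In the RefSeq gene order 2 pairs are separated by 1 gene, PRE4 with RPN12 and RPT4 with RPN8. Their log2 fold changes were -0.15 and 0.20, and 0.07 and -0.20, so the signs were opposite within each pair.

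Genes that work beside the proteasome were read from 4 further lists, 40 genes in all. By their brightest probe sets, 3 rose, 3 fell and 34 did not pass. Of the 6931 probe sets, 15.4% were called higher and 14.8% lower. The median log2 fold change was -0.0059, and -0.07 over all probe sets. The falls were all in the list of 14 assembly chaperones and associated proteins, of which 0 rose and whose median was -0.31. They were ADD66, POC4 and IRC25, whose products work in the pairs of chaperones that build the alpha ring. Of the 14, 7 had all K91A arrays below all WT arrays and 2, TMA17 (0.84) and HUL5 (0.49), above. Of all probe sets, 27.5% were below in this way and 23.7% above. The list also held the lid gene SEM1 (-1.29) and ECM29, whose tested probe sets ran from -1.60 to 1.46. The ECM29 probe set at -1.60 had 10.13, 10.51 and 7.66 on K91A 1, 2 and 3, with K91A 3 far the lowest. On WT 1, 2 and 3 it had 11.15, 11.17 and 10.79. The median coding length of the list was 778.5 nt, and its genes spanned 270 to 5607 nt. The 695 genes of 597 to 867 nt outside the core had a median of -0.31, and 21% of them were called lower. That narrower span leaves out POC4 and IRC25, so it is not a matched background for this list. IRC25 had 11.47, 11.31 and 11.48 on K91A 1, 2 and 3, against 12.13, 12.22 and 12.15 on WT 1, 2 and 3 (log2 fold change -0.75, SE 0.17, adjusted p = 0.0176). POC4, its partner, had 11.39, 11.13 and 11.71 on the K91A arrays, against 12.43, 12.35 and 12.20 on the WT arrays (-0.91, SE 0.21, adjusted p = 0.0195). ADD66 had 11.05, 11.04 and 11.25 on the K91A arrays, against 12.21, 11.93 and 11.75 on the WT arrays (-0.85, SE 0.20, adjusted p = 0.0193). In all 3 genes each K91A array was below each WT array. FUB1, a relative of the mammalian proteasome-binding protein PI31, had 10.59, 11.06 and 10.76 on the K91A arrays, against 11.61, 11.80 and 11.12 on the WT arrays (-0.71, SE 0.24, adjusted p = 0.0654). It did not overlap between the groups, and passed without K91A 2 (-0.86, adjusted p = 0.0479), without WT 3 (-0.90, adjusted p = 0.0415) and with array weights (-0.97, adjusted p = 0.00607). PBA1, the partner of ADD66, overlapped between the groups (-0.22, SE 0.28, adjusted p = 0.572). POC4 and IRC25 are short (447 and 540 nt), and their calls ended with the length trend removed (-0.63 and -0.47, adjusted p = 0.057 and 0.0646). That of ADD66 did not. All 3 calls ended without WT 1 (adjusted p = 0.069 to 0.0827) or WT 2 (0.0741 to 0.0834), with WT 1 and WT 2 averaged (0.0733 to 0.0764), with the replicate block (0.0517 to 0.0563), on the values as deposited (0.0841 to 0.118) and with K91A 3 counted as WT (0.32 to 0.359). Those of ADD66 and POC4 also ended without K91A 1 (0.0552 and 0.0522).

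By their brightest probe sets, 1 of 13 genes of ubiquitin and its conjugation rose and 0 fell. Of all probe sets, 15.4% were called higher and 14.8% lower. TOM1 was at 0.19 (adjusted p = 0.42) by that probe set. Further TOM1 probe sets, with identifiers that mark shared probes, were called higher (1.94 and 2.20, adjusted p = 0.00371 and 0.0174). Its other tested probe sets did not pass. UBC5, a stress-linked ubiquitin-conjugating enzyme, had 12.23, 12.95 and 12.35 on K91A 1, 2 and 3, against 11.44, 11.46 and 11.43 on WT 1, 2 and 3 (1.07, SE 0.23, adjusted p = 0.0167). The WT arrays were nearly equal and all K91A arrays stood above them. Its near copy UBC4 had -0.18 (SE 0.15, adjusted p = 0.368). Whether the probe sets tell such similar genes apart was not tested. UBI4, the stress-induced polyubiquitin gene, was at 0.57 (SE 0.20, adjusted p = 0.0664). RAD6 and MUB1, whose products with the ligase Ubr2 mark Rpn4 for degradation, were at -0.64 (adjusted p = 0.0505) and 0.70 (adjusted p = 0.0649). Without K91A 3, UBI4 (0.70, adjusted p = 0.0454) and RAD6 (-0.74, adjusted p = 0.0388) passed. UBI4 also passed with the replicate block (adjusted p = 0.0427), and RAD6 without the mean-variance trend (0.0477). With array weights UBI4, RAD6 and MUB1 passed (adjusted p = 0.0463, 0.0224 and 0.038). UBC5 no longer passed without WT 1 (adjusted p = 0.0641) or without WT 2 (0.0661). It also ended with both averaged (0.0633), on the values as deposited (0.779) and with K91A 3 counted as WT (0.326).

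Of 9 genes of ubiquitin shuttles and the Cdc48 unfoldase, which hand substrates to the proteasome, none passed limma's test or had an unadjusted p under 0.05. Over all probe sets tested, 15.4% were called higher and 14.8% lower. Their median was 0.07, with values between -0.43 (RAD23) and 0.45 (DOA1). DDI1, NPL4 and DOA1 had all K91A arrays above all WT arrays, as did 23.7% of probe sets. Their log2 fold changes were 0.36, 0.27 and 0.45 (adjusted p = 0.18, 0.262 and 0.15).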

How the data were processed

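The authors' table holds a linear intensity for each probe set on each array, and the sources used here do not say how those deposited intensities were made from the scans. Of 9335 probe sets 60 were controls, 33 had fewer than 2 values in a group, and the dimmest 25% of the rest by mean level (2311) were left out. Genes were named by the platform annotation, brought up to date through Entrez identifiers in a RefSeq table (assembly R64), only from probe sets with 1 symbol (6504 of 9275). The probe set with the highest mean stood for a gene. Values were set to log2(intensity + 16) and quantile normalized. K91A minus WT was tested by the moderated test of limma 3.58.1 (R 4.3.3; eBayes with trend), with Benjamini-Hochberg adjustment over 6931 probe sets. Every adjusted p comes from such a fit. The procedure was tested on simulated data. The number of arrays limits the precision, and the table has no detection calls.

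Samples were grouped by title. Replicate numbers were not taken as pairs. The genes and lists were chosen with earlier results of these data known, so no test was made over a list. All 35 genes are named, and of each other list up to 4 with the smallest p, which include those past the threshold. PBA1, UBC4, TOM1, SEM1, TMA17, HUL5 and ECM29 were named outside that rule. Alternatives were the replicate block, other pseudocounts (1 and 64), scalings, filters and variance models, array weights, removal of the trend on coding length, WT 1 and WT 2 averaged, K91A 3 counted as WT, each array left out, and the mean of a gene's probe sets.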

Additional observations from a re-analysis of the deposited data

How the results depend on the processing

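RPN4 was higher in all 19 alternatives, with a log2 fold change of 0.38 to 1.41, and kept its side of the threshold in 16. The replicate block, the other filters, the fit without a mean-variance trend and the mean of probe sets could not change its fold change. The others share the same arrays, so the 19 are not independent. The count of probe sets called was 2091. It was 0 with K91A 3 counted as WT (limma, 1056 at an unadjusted p under 0.05), 703 on the values as deposited (32 higher and 671 lower), 1372 with a filter at the median, 886 with WT 1 and WT 2 averaged, 3046 with array weights and 841 to 2300 with 1 array left out, lowest without WT 2 and 925 without WT 1. Of the 35 genes, the count called higher was 0 on the values as deposited and with K91A 3 counted as WT. It was 2 with the trend on coding length removed and with array weights, 3 with the mean of a gene's probe sets, and 0 to 1 with 1 array left out. The count called lower was 1 on the values as deposited, 2 with median centring, 6 with array weights, and 0 to 2 with 1 array left out. On the values as deposited the medians were -0.96 for core, -1.06 for base and -0.90 for lid, where that of all probe sets was -0.82. With median centring they were -0.31, -0.41 and -0.26. The core median was 0.12 with the length trend removed, and the base median was -0.32 with array weights. With 1 array left out they were -0.13 to 0.0093 for core, -0.30 to -0.15 for base and -0.13 to -0.0063 for lid. The causes of these shifts were not tested.

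The labels give no pairing by replicate number. The correlation of same-numbered arrays' deviations from their group means was 0.167, -0.152 and -0.0052. K91A 1 correlated best with its own number, and K91A 2 and K91A 3 with another. The deviations within a group are not independent, so these correlations cannot tell whether the samples were paired. With the replicate number as a block 1535 probe sets were called, RPN4 kept its call (adjusted p = 0.0287), and 0 of the 35 genes were called lower.

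No gene whose sign changed below had passed the test. With K91A 3 counted as WT, sign changed for PRE5 (-0.058), PUP1 (-0.050), PRE1 (0.048), RPN2 (0.022), RPN3 (0.052), RPN7 (-0.028), RPN8 (0.072) and UMP1 (0.93). On the values as deposited, sign changed for PRE8 (-0.57), PRE5 (-0.78), PRE10 (-0.77), PUP1 (-0.80), PUP3 (-0.66), RPT4 (-0.80), RPT5 (-0.62), RPN5 (-0.71), RPN7 (-0.80), RPN11 (-0.76), RPN12 (-0.71), DDI1 (-0.38), NPL4 (-0.48), DOA1 (-0.35) and UBI4 (-0.36). With median centring, sign changed for PRE5 (-0.13), PRE10 (-0.13), PUP1 (-0.16), PUP3 (-0.011), RPT4 (-0.15), RPN5 (-0.066), RPN7 (-0.16), RPN11 (-0.11) and RPN12 (-0.062). With the trend on coding length removed, sign changed for PRE6 (0.084), PRE1 (0.21), PRE2 (0.12), PRE7 (0.13), PRE4 (0.024), RPN10 (0.11) and RPN13 (0.24). With array weights, sign changed for PRE2 (0.073), PRE7 (0.014) and RPN11 (-0.085). With WT 1 and WT 2 averaged, sign changed for RPN13 (0.011) and RPN11 (-0.0043). With the mean of a gene's probe sets, sign changed for BLM10 (1.22). Leaving out each array in turn moved PUP1 (-0.060 to 0.26), RPT4 (-0.044 to 0.20), RPN10 (-0.14 to 0.031), RPN7 (-0.00045 to 0.21), PRE2 (-0.12 to 0.094), PRE7 (-0.23 to 0.027), RPT1 (-0.14 to 0.081), RPN13 (-0.17 to 0.16), RPN11 (-0.14 to 0.21), BLM10 (-0.16 to 0.092), PRE1 (-0.13 to 0.0084) and UMP1 (-0.87 to 0.42) across 0. The filter at the median gave no value for PDR3, RAD6 and YAP1. The array values hold no detection calls, so signal over background is unknown.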
